A study of Mus musculus with 24 samples.

Results

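Bile acid synthesis in liver and the nuclear receptors that govern it were followed through 10 genes of the 23972 in the count table. The members were listed by name as 7 enzyme genes (*Cyp7a1*, *Cyp8b1*, *Cyp27a1*, *Cyp7b1*, *Cyp39a1*, *Akr1d1*, and *Baat*) and 3 nuclear receptor genes (*Nr1h4*, *Nr0b2*, and *Nr5a2*), and each matched 1 row of the table. Liver RNA was sequenced from 24 female mice fed a high-fat diet, in 4 groups of genotype and treatment. Control mice carried the *Lmna* fl/fl allele without *Adipoq*-Cre, and *Lmna* ADKO mice carried the same floxed allele with *Adipoq*-Cre, a recombinase driven by the adiponectin promoter in adipocytes, which makes them a model of lipodystrophy. All 4 groups thus share the floxed allele, the sex, and the diet. The paper places this liver experiment at standard room temperature, below the thermoneutral zone of mice. There were 7 control mice and 6 *Lmna* ADKO mice given vehicle, and 3 control mice and 8 *Lmna* ADKO mice labelled as a rescue. By the paper's results, the treatment of the liver experiment was FGF21 alone, and its methods describe delivery by AAV8 vectors. The paper also reports that plasma FGF21, measured by ELISA, rose after transduction in mice at room temperature. Counts on *Fgf21* did not set the groups labelled rescue apart, with 3.14 to 7.40 counts scaled to library size (CPM) in the 3 control rescue libraries and 1.90 to 10.8 CPM in the 7 control vehicle libraries, and with 2.19 to 9.99 CPM in *Lmna* ADKO rescue and 4.63 to 10.6 CPM in *Lmna* ADKO vehicle livers. Whether the counting would include a transcript of the vector was not tested, so these counts do not check the treatment, and the treated groups are called rescue as labelled. The labels give no age and no time of day at collection.

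Bile acids are made from cholesterol in hepatocytes. The classic route starts with the microsomal hydroxylase CYP7A1, and the alternative route starts with the mitochondrial hydroxylase CYP27A1 and passes through CYP7B1, whereas CYP8B1 steers the product toward cholic acid. Bile acids bind FXR, the product of *Nr1h4*, which induces the corepressor SHP (*Nr0b2*), and SHP in turn represses *Cyp7a1* and *Cyp8b1* through the receptors that activate them, among them liver receptor homolog, the product of *Nr5a2*. Another signal reaches the liver from the intestine through the receptor FGFR4 and its coreceptor β-Klotho (*Klb*).

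To look for the element of liver receptor homolog near the members, promoter windows of RefSeq on GRCm38.p6 were searched for CAAGGNCA, an extended element that receptors of the *Nr5a2* family are known to bind, on both strands (TGNCCTTG on the opposite strand). Windows hold 250 bases before a transcription start, and 6 of the 10 members have one. The motif was found in 2 of the 6, *Cyp8b1* and *Nr0b2*, and in 5.53% of all 32851 windows. It was also found in 1 of 11 windowed genes of other bile acid enzymes, 1 of 16 of other regulators, and 1 of 7 of bile acid transport, which are lists described further on. The windows of both members are shown because they hold the motif (in capitals), which begins 60 bases before the start in *Cyp8b1* (minus strand, chr9:121916306-121916555) and 201 bases before it in *Nr0b2* (plus strand, chr4:133553126-133553375).
Cyp8b1: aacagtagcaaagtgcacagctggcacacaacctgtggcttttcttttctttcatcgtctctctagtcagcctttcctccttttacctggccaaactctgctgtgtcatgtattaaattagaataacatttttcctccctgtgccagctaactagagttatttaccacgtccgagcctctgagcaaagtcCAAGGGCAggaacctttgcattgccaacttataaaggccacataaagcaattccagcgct
Nr0b2: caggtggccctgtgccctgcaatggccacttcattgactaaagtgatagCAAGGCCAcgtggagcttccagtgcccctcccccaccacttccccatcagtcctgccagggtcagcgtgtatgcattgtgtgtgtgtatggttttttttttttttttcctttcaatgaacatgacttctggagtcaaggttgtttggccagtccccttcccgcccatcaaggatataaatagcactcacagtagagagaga
A match to these letters is a description of the window and was not tested as a binding site.

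Each library held between 19863304 and 21510054 counts on genes, and the smallest count of a member in any library was 200, so that counting error was small beside the differences between animals. Values are CPM scaled by TMM, and each contrast was tested in 1 quasi-likelihood fit of the 4 groups in edgeR. Calls needed an adjusted p under 0.05, by Benjamini-Hochberg across the whole table, and more than a 1.5-fold change. Nothing in the labels says more of the libraries than that each came from 1 mouse, and p-values measure the spread between these mice. Each library's log2 CPM, less the gene's median over libraries of the same genotype, was also set against gene length. In 3 libraries (*Lmna* ADKO rescue library 7, control rescue library 3, and control vehicle library 3) this difference fell most steeply with length. Their slopes were -0.331, -0.289, and -0.154 per log2 of exonic length, against -0.11 to 0.13 in the other 21. Below they are called the 3 libraries with a slope on gene length, though the others had smaller slopes in either direction. *Lmna* itself, targeted in adipocytes, had 15.7 to 22.1 CPM in control vehicle livers and 23.6 to 31.0 CPM in *Lmna* ADKO vehicle livers (log2 fold change 0.52, edgeR adjusted p = 0.00322), so whole liver does not check the deletion. Animal numbers had 3 digits in 6 of 7 control vehicle mice and in 1 of 6 *Lmna* ADKO vehicle mice. They had 3 digits in 0 of 3 control rescue mice and in 4 of 8 *Lmna* ADKO rescue mice, and 4 digits in the rest. The labels do not say what the number series stands for. With vehicle it lies largely along the genotypes, and in controls largely along the treatment, so these cannot be told apart from it. In bulk liver, fewer cells of a type and less RNA per cell cannot be told apart.

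All members were expressed in every library. Per kilobase of exonic length (RPKM), the order of the medians in control vehicle livers was *Cyp27a1* (145.2), *Cyp8b1* (133), *Baat* (96.0), *Nr1h4* (55.3), *Akr1d1* (50.5), *Cyp7a1* (30.5), *Nr0b2* (26.4), *Cyp39a1* (11.7), *Nr5a2* (7.28), and *Cyp7b1* (7.15). Most neighbours in that order overlapped between libraries. The exceptions were *Baat*, whose lowest library (81.3 RPKM) lay above the highest of *Nr1h4* (60.8 RPKM), and *Nr0b2*, whose lowest library (15.6 RPKM) lay above the highest of *Cyp39a1* (14.1 RPKM). In *Lmna* ADKO vehicle livers *Cyp8b1* came first with a median of 174 RPKM, and *Cyp27a1* followed with 112 RPKM, whereas in *Lmna* ADKO rescue livers *Cyp27a1* was first again with 178 RPKM and *Cyp8b1* had 164 RPKM. The first enzyme of the classic route was the most variable member, with a CPM coefficient of variation of 61.0% among control vehicle livers, and *Nr5a2* was the steadiest with 6.79%.

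**Figure D1:**
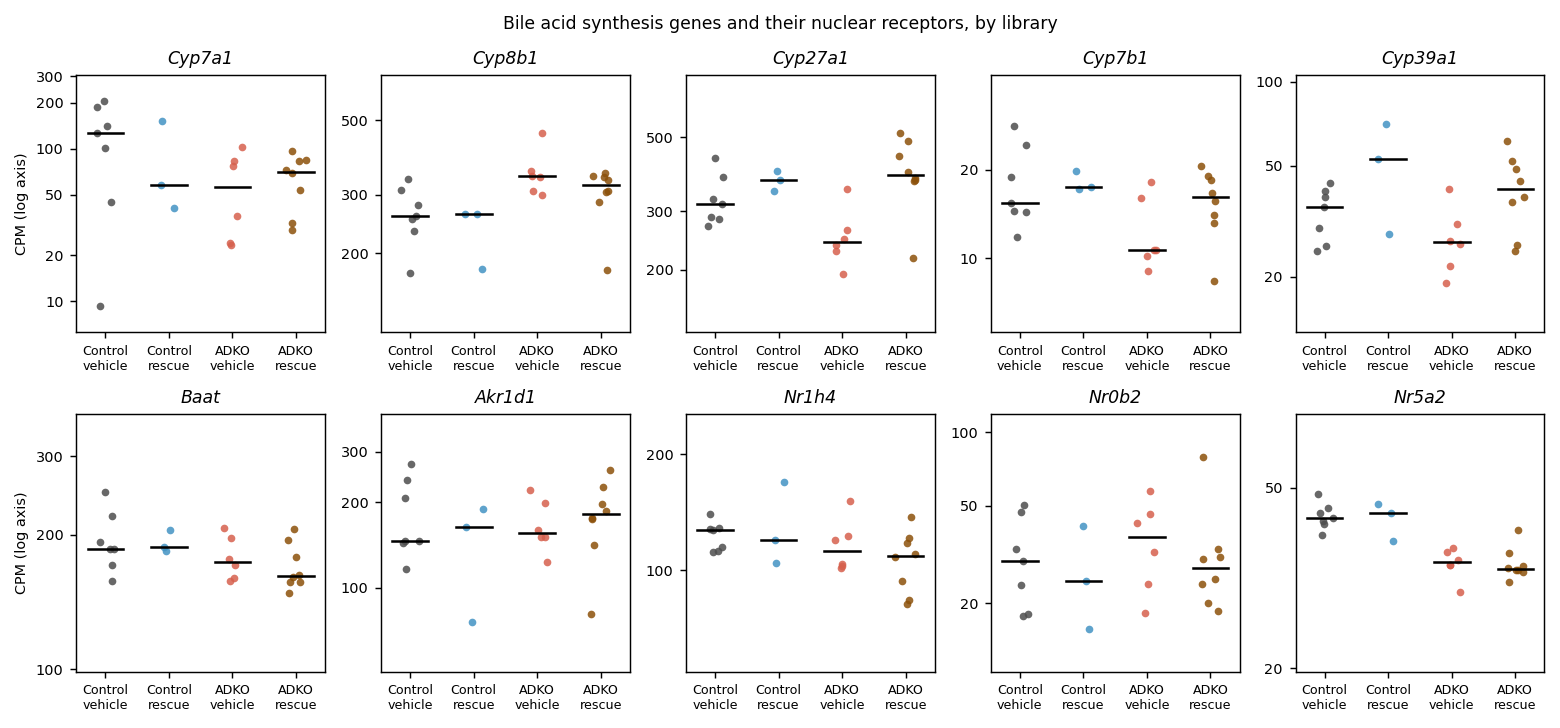
Level of each of the 10 members in every library, in CPM on a log axis, for the 4 groups of genotype and treatment. Points are libraries and bars are group medians. *Nr5a2* is lower in all 6 *Lmna* ADKO vehicle libraries than in all 7 control vehicle libraries, and *Cyp7a1* spreads from 9.37 to 205 CPM within control vehicle livers.

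To determine how the pathway differed in lipodystrophic liver, *Lmna* ADKO and control mice given vehicle were compared. Of the 10 members, 0 were called, against 8.48% of all genes (2033 called, 5.12% of genes higher and 3.36% lower). By adjusted p alone 1 member passed, *Nr5a2*, against 15.1% of all genes, and 4 members had an unadjusted p under 0.05 in edgeR, as did 27.0% of all genes. DESeq2 also called 0 members, with 3 past its adjusted p alone and 5 at an unadjusted p under 0.05. The shares over all genes here are those of edgeR, so these DESeq2 counts cannot be set against them. The median log2 fold change of the members was -0.21, against 0.0027 over all genes. Without the 3 libraries with a slope on gene length, 0 members were called and 1 passed on adjusted p. With the number series as a covariate *Nr5a2* had a log2 fold change of -0.30 (edgeR adjusted p = 0.0472).

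In the classic route, *Cyp7a1* had 9.37, 127, and 205 CPM as the lowest, median, and highest of 7 control vehicle libraries, and 23.5, 56.4, and 103 CPM in 6 *Lmna* ADKO vehicle libraries. The control median was above all 6 *Lmna* ADKO libraries, but control vehicle library 2 was the lowest of all and the groups overlapped. The log2 fold change of -1.01 did not pass (standard error 0.537, edgeR adjusted p = 0.240), and its 95% interval ran from -2.13 to 0.11. *Cyp8b1* was on the other side of zero. It had 174, 259, and 333 CPM in control vehicle livers and 299, 340, and 457 CPM in *Lmna* ADKO vehicle livers as lowest, median, and highest, and 4 of the 6 livers of *Lmna* ADKO mice exceeded every control. Its log2 fold change was 0.41 (standard error 0.149, edgeR adjusted p = 0.0627), with a DESeq2 adjusted p of 0.0342 and a fold of 1.33, under the fold required. In edgeR it passed on adjusted p alone in 1 of 13 fits that left out 1 library (adjusted p = 0.0363).

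The ratio of *Cyp8b1* to *Cyp7a1* CPM within a library, which library scaling cannot move, had a median of 2.19 in control vehicle livers and 8.54 in *Lmna* ADKO vehicle livers. It ran from 1.14 to 27.0 in the controls and from 3.32 to 14.6 in *Lmna* ADKO livers, so the groups overlapped, and the highest ratio belonged to control vehicle library 2. In rescue livers the medians were 3.10 (1.71 to 6.44, n = 3) in controls and 4.26 (1.84 to 11.7, n = 8) in *Lmna* ADKO mice. The ratios are given as a description, with no test.

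In the alternative route, *Cyp27a1* had 271, 316, and 433 CPM in control vehicle livers and 194.5, 243, and 349 CPM in *Lmna* ADKO vehicle livers as lowest, median, and highest. Of the *Lmna* ADKO libraries 5 of 6 lay below every control, and library 4 was within the control range. The log2 fold change of -0.37 did not pass (standard error 0.156, edgeR adjusted p = 0.112). In 1 of 13 fits that left out 1 library it passed on adjusted p alone (edgeR adjusted p = 0.0335), under the fold required. *Cyp7b1*, the oxysterol hydroxylase, had 11.8, 15.5, and 28.2 CPM in control vehicle livers and 9.06, 10.7, and 18.2 CPM in *Lmna* ADKO vehicle livers, with 4 of 6 below every control. Its log2 fold change was -0.55 (standard error 0.208, edgeR adjusted p = 0.0792). Single libraries decided this, and *Cyp7b1* was called without *Lmna* ADKO vehicle library 4 (log2 fold change -0.69, edgeR adjusted p = 0.0264) and without control vehicle library 4 (-0.63, adjusted p = 0.0399). *Cyp39a1*, which hydroxylates an oxysterol that comes largely from brain, had a log2 fold change of -0.30 (edgeR adjusted p = 0.432) and overlapped between groups.

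Later steps showed no difference past the test. *Akr1d1*, the reductase that acts on the sterol ring, had a median of 146 CPM (117 to 272) in control vehicle and 155 CPM (123 to 219.9) in *Lmna* ADKO vehicle livers, a log2 fold change of -0.12 with a 95% interval from -0.61 to 0.37. *Baat*, which joins bile acids to taurine or glycine, had a median of 186 CPM (158 to 249) and 174 CPM (157.5 to 208), a log2 fold change of -0.13 with an interval from -0.35 to 0.09. For *Baat* a change of 1.5-fold in either direction lay outside the interval, whereas for *Akr1d1* a decrease of that size did not.

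Among the receptors, *Nr5a2* had 39.3, 43.0, and 48.6 CPM in control vehicle livers and 29.5, 34.2, and 36.8 CPM in *Lmna* ADKO vehicle livers as lowest, median, and highest. All 6 *Lmna* ADKO libraries lay below all 7 controls. It was the 1 member of 10 whose groups did not overlap, against 13.9% of 12492 genes whose log2 CPM averaged 0 or more. The log2 fold change was -0.35 (standard error 0.0807, edgeR adjusted p = 0.00324), or 0.786 times the control level, which passed on adjusted p and not on fold. The adjusted p stayed under 0.05 in each of 13 fits that left out 1 library. *Nr1h4*, the bile acid receptor gene, had 111 to 140.1 CPM in control vehicle and 101 to 151 CPM in *Lmna* ADKO vehicle livers, a log2 fold change of -0.08 with a 95% interval from -0.34 to 0.19. *Nr0b2* ranged from 17.7 to 50.3 CPM and from 18.2 to 57.7 CPM, with a log2 fold change of 0.22 and a wide interval from -0.52 to 0.97 (edgeR adjusted p = 0.748).

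**Figure D2:**
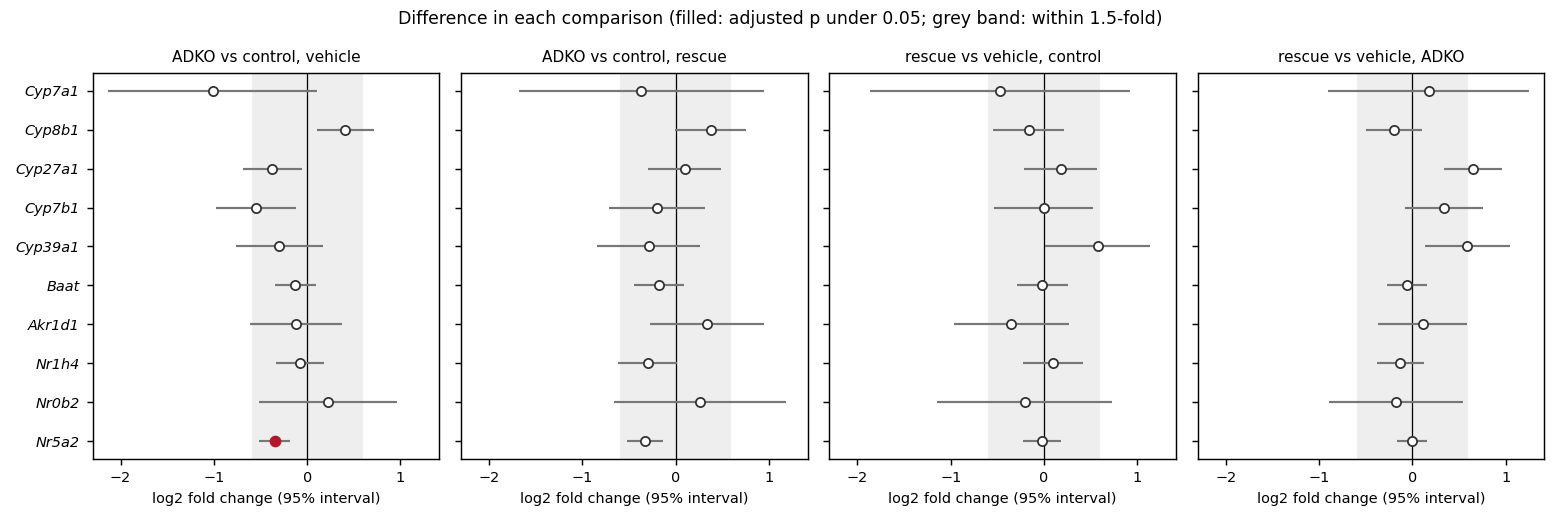
Log2 fold change of each member in 4 comparisons, with 95% intervals from the edgeR fit. The grey band marks changes within 1.5-fold, and the filled point marks an adjusted p under 0.05, which *Nr5a2* alone reached, in the vehicle comparison.

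The same genotypes were compared after rescue, with 8 *Lmna* ADKO and 3 control libraries. Of the 10 members, 0 were called by edgeR or by DESeq2, against 2.88% of all genes in edgeR (1.61% higher and 1.26% lower, or 3.85% on adjusted p alone), and 1 had an unadjusted p under 0.05 by either tool, where 16.9% of all genes did in edgeR. That member was *Nr5a2*, with 44.0, 38.2, and 46.1 CPM in control rescue livers and 31.0, 33.1, and 40.3 CPM as lowest, median, and highest in *Lmna* ADKO rescue livers. Of the 8 libraries 7 lay below every control, and library 4 was within their range. No member separated the groups fully, against 8.56% of those 12492 genes. The log2 fold change was -0.33 (standard error 0.0964, edgeR adjusted p = 0.0511, DESeq2 adjusted p = 0.00181). It was -0.26 (edgeR adjusted p = 0.194) without the 3 libraries with a slope on gene length. That fit also drops 1 of the 3 controls, so the slope and the smaller group cannot be told apart in it.

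*Cyp8b1* had 262, 263, and 179.9 CPM in control rescue livers, and 7 of 8 *Lmna* ADKO rescue libraries (284 to 347.5 CPM) lay above all of them, whereas *Lmna* ADKO rescue library 4 (179 CPM) lay below. Its log2 fold change was 0.38 (standard error 0.186, edgeR adjusted p = 0.301). *Cyp7a1* had 153, 40.8, and 58.0 CPM in control rescue livers and 29.2, 70.7, and 97.2 CPM as lowest, median, and highest in *Lmna* ADKO rescue livers. Its log2 fold change of -0.37 turned to 0.40 when control rescue library 1, the highest of the 3, was left out, with a 95% interval from -1.68 to 0.95 in the full fit, so that no direction was detectable with 3 controls.

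Rescue was then compared with vehicle in *Lmna* ADKO livers. In edgeR 0 members were called and 0 of all genes (0%), with 2 members and 1608 genes (6.71%) at an unadjusted p under 0.05, whereas DESeq2 called 1 member and 15 genes in all. The member that DESeq2 called was *Cyp27a1*, with 217, 386, and 515.5 CPM as lowest, median, and highest of 8 rescue libraries beside 194.5, 243, and 349 CPM with vehicle. Of the rescue libraries 7 of 8 lay above every vehicle library, and library 3 was at 217 CPM. Groups that do not overlap at all were rare in this comparison, at 0.112% of 12492 genes, and *Cyp27a1* was not among them. The log2 fold change was 0.65 (standard error 0.153, edgeR adjusted p = 0.388, DESeq2 adjusted p = 0.0285). Without *Lmna* ADKO rescue library 3, *Cyp27a1* was called by edgeR too (log2 fold change 0.74, adjusted p = 0.0109). This contrast and the genotype contrast with vehicle share the 6 *Lmna* ADKO vehicle libraries, in which *Cyp27a1* was low.

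The other member at an unadjusted p under 0.05 was *Cyp39a1*, with 24.8, 41.4, and 61.3 CPM in *Lmna* ADKO rescue livers and 19.0, 26.6, and 41.2 CPM with vehicle as lowest, median, and highest. Of the rescue libraries 4 of 8 lay above every vehicle library, and the groups overlapped. Its log2 fold change was 0.59 (standard error 0.220, edgeR adjusted p = 0.704). *Cyp7a1* had a log2 fold change of 0.17 (95% interval from -0.90 to 1.25), *Cyp8b1* of -0.20 (from -0.49 to 0.10), and *Cyp7b1* of 0.34 (from -0.08 to 0.76). The receptors had log2 fold changes of -0.0010 for *Nr5a2* (95% interval from -0.16 to 0.16), -0.13 for *Nr1h4* (from -0.38 to 0.12), and -0.17 for *Nr0b2* (from -0.90 to 0.55).

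In control livers, rescue against vehicle called 0 members by edgeR or by DESeq2, against 0.0542% of all genes in edgeR (13 genes, 12 of them, 0.0501%, higher), and 1 member had an unadjusted p under 0.05 by either tool, where 6.16% of all genes did in edgeR. It was again *Cyp39a1*, with 70.6, 52.8, and 28.5 CPM after rescue and 24.8 to 43.2 CPM with vehicle, and the 2 highest rescue libraries lay above every vehicle library, so the groups overlapped, where 2.07% of 12492 genes did not. Its log2 fold change was 0.57 (standard error 0.270, edgeR adjusted p = 0.771). For the interaction of genotype and treatment, 0 members were called by edgeR, against 0.00417% of all genes (1 gene), and 0 by DESeq2, against 11 genes. By unadjusted p under 0.05 there were 0 members by either tool, and 1165 genes (4.86%) in edgeR. The member with the smallest p was *Cyp27a1*, with an interaction of 0.47 on the log2 scale (standard error 0.246, edgeR adjusted p = 0.984).

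SHP is known to repress *Cyp7a1*, so levels of *Nr0b2* and the hydroxylase genes were set beside each other within the groups of at least 6 libraries. Pearson's r of log2 CPM between *Nr0b2* and *Cyp7a1* was -0.47 (Spearman's rho -0.29) in 7 control vehicle livers, -0.51 (rho -0.31) in 6 *Lmna* ADKO vehicle livers, and -0.51 (rho 0.07) in 8 *Lmna* ADKO rescue livers. Exact permutation p-values for r were 0.288, 0.292, and 0.204, and for rho 0.556, 0.564, and 0.882. Adjusted over the 12 relations computed, the permutation p was 0.646 for r in each group. Without the 2 libraries farthest from the median of *Nr0b2*, r was 0.38, -0.15, and 0.03. Leaving out the extremes narrows the range of *Nr0b2* and leaves few libraries, so these values cannot show what r rested on. The libraries left out include control vehicle library 2, with the lowest *Cyp7a1* (9.37 CPM) and the highest *Nr0b2* (50.3 CPM) of its group. They also include *Lmna* ADKO rescue library 7, with 32.4 CPM of *Cyp7a1* and 79.4 CPM of *Nr0b2*.

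With *Cyp8b1*, r of *Nr0b2* was -0.12, 0.39, and 0.0096 in the same groups (exact permutation p = 0.819, 0.468, and 0.969), and rho was -0.36, 0.20, and -0.095 (exact permutation p = 0.444, 0.714, and 0.840). Adjusted over the 12 relations, the permutation p for r was 0.912, 0.802, and 0.969. Of the 12, which also paired *Nr1h4* with *Nr0b2* and the clock output gene *Dbp* with *Cyp7a1*, the smallest p was that of *Nr1h4* and *Nr0b2* in *Lmna* ADKO vehicle livers (r = -0.79, exact permutation p = 0.05, adjusted p = 0.6; rho = -0.77, p = 0.103), and r was -0.27 without the 2 libraries farthest from the median. *Dbp* and *Cyp7a1* had r of 0.32, 0.66, and 0.40 (exact permutation p = 0.55, 0.176, and 0.323; adjusted p = 0.826, 0.646, and 0.646) and rho of 0.36, 0.54, and 0.43 (exact permutation p = 0.444, 0.297, and 0.299).

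**Figure D3:**
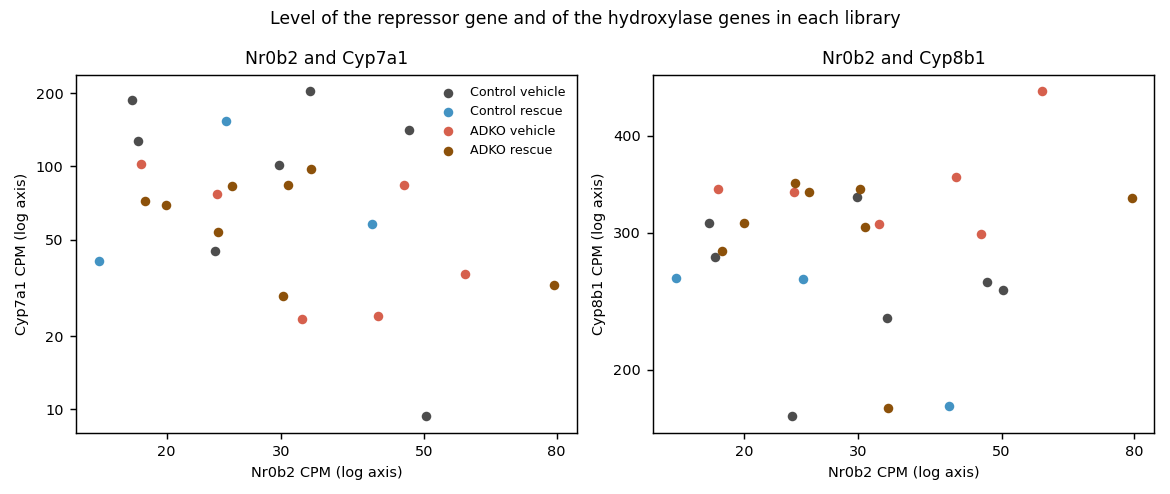
Level of *Nr0b2* against *Cyp7a1* (left) and *Cyp8b1* (right) in CPM on log axes, 1 point per library, coloured by group. The lowest *Cyp7a1* (9.37 CPM) and the highest *Nr0b2* (79.4 CPM) are single libraries, and the groups overlap in both panels.

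Bile acid enzymes outside the members were compared in vehicle livers too. Of 14 other bile acid enzyme genes, 2 rose and 2 fell, and 8 passed on adjusted p alone, with a median log2 fold change of -0.02. Over all genes 8.48% were called and 15.1% passed on adjusted p alone. *Scp2*, which encodes the peroxisomal thiolase of side-chain shortening and a sterol carrier protein, rose from a median of 2416 CPM (1918 to 2907) to 3941 CPM (3832 to 4426), with no overlap (log2 fold change 0.74, edgeR adjusted p = 1.5e-05). *Slc27a5*, the bile acid CoA ligase that acts just before BAAT, fell from 1017 CPM (896 to 1191) to 608 CPM (490.3 to 819), with no overlap (log2 fold change -0.75, edgeR adjusted p = 0.00147). *Cyp2c70*, which makes the muricholic acids of mice, fell from 325 CPM (238 to 510.3) to 139.8 CPM (82.0 to 305), with 5 of 6 *Lmna* ADKO libraries below every control (log2 fold change -1.13, edgeR adjusted p = 0.00624). *Ch25h*, an oxysterol hydroxylase, was called higher on 0 to 2 counts per control library and 3 to 10 per *Lmna* ADKO library, too few for a stable fold.

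Of 8 genes of FXR targets and bile acid transport, 1 rose and 2 fell with vehicle, against 8.48% of all genes called. The median log2 fold change of the list was 0.05. *Abcb11*, the bile salt export pump and an FXR target, fell from a median of 441 CPM (366 to 568.2) to 282 CPM (200.5 to 355.5) with no overlap, a log2 fold change of -0.70 (edgeR adjusted p = 0.00416). *Slc10a1*, the main uptake transporter from blood, fell from 681 CPM (496 to 833) to 383 CPM (273 to 621), a log2 fold change of -0.71 (edgeR adjusted p = 0.00433). *Abcc4*, an exporter toward blood, rose from 3.84 CPM (2.91 to 5.90) to 7.17 CPM (5.46 to 10.6), a log2 fold change of 0.85 (edgeR adjusted p = 0.0143), but the call was lost without *Lmna* ADKO vehicle library 6 (0.72, edgeR adjusted p = 0.0536) and with the number series as a covariate (0.85, edgeR adjusted p = 0.0761).

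**Figure D4:**
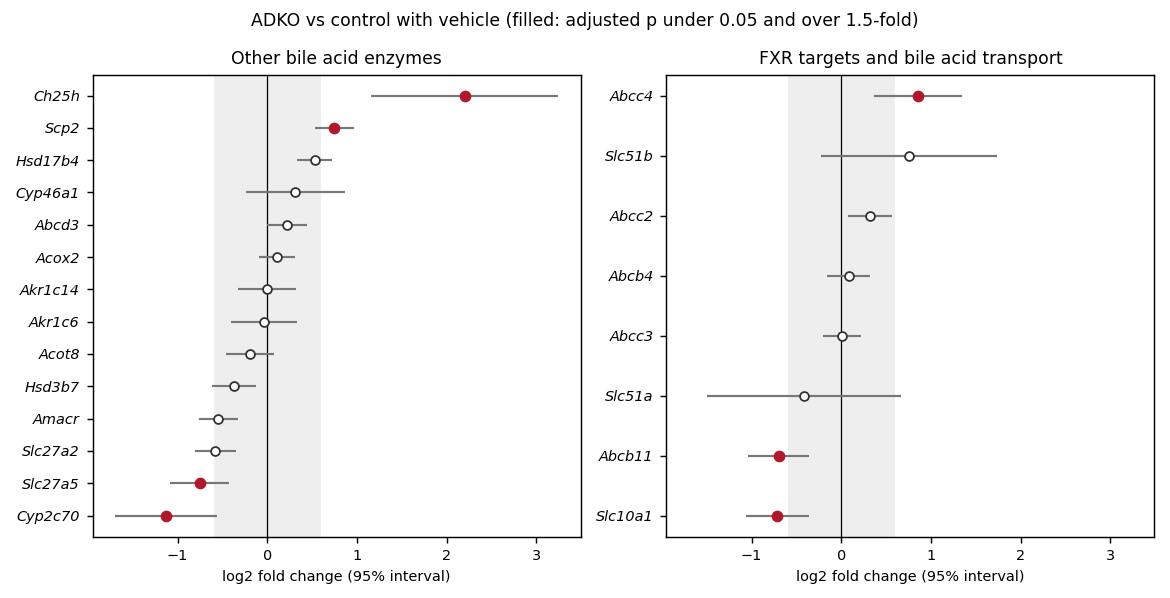
Log2 fold changes of *Lmna* ADKO against control livers with vehicle, with 95% intervals, for 14 other bile acid enzyme genes and 8 genes of FXR targets and transport. Filled points passed both the adjusted p and the fold, and the grey band marks changes within 1.5-fold. Of the filled points, 3 lie above 0 (*Ch25h*, *Scp2*, and *Abcc4*) and 4 below it (*Slc27a5*, *Cyp2c70*, *Abcb11*, and *Slc10a1*).

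Of 17 other regulators, 0 rose and 3 fell with vehicle, against 8.48% of all genes called. On adjusted p alone 8 passed, against 15.1% of all genes, and the median log2 fold change of the list was -0.28. *Nr1i3*, the xenobiotic receptor CAR, fell from a median of 459 CPM (258 to 624.9) to 211 CPM (163 to 342.5), a log2 fold change of -1.004 (edgeR adjusted p = 0.00157). *Foxa2* had a log2 fold change of -0.80 (edgeR adjusted p = 0.00347), but the call was lost without the 3 libraries with a slope on gene length (-0.58, under the required fold) and with the number series as a covariate (-0.65, edgeR adjusted p = 0.0567). *Fgfr4*, the receptor of the intestinal signal, passed on adjusted p with 27.3 to 35.3 CPM in controls and 22.6 to 27.7 CPM in *Lmna* ADKO livers, -0.33 on the log2 scale (edgeR adjusted p = 0.0149). *Klb* had a log2 fold change of -0.26 (edgeR adjusted p = 0.227), with 5 of 6 *Lmna* ADKO libraries below every control.

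After rescue, the difference between genotypes was called for 1 of the 14 enzymes, *Scp2* (log2 fold change 0.74, edgeR adjusted p = 0.00194), for 1 of the 17 regulators, *Nr1i3* (-1.30, adjusted p = 0.00233), and for 0 of the 8 transport genes. Over all genes this difference was called for 2.88%. For *Nr1i3* it was -1.10 (adjusted p = 0.0713) without the 3 libraries with a slope on gene length, a fit that also has fewer controls. For the transport genes 0 had an unadjusted p under 0.05 in edgeR, and DESeq2 called 0 with 1 at that level. In edgeR 0 genes of these 3 lists were called for rescue against vehicle in either genotype, or for the interaction. In *Lmna* ADKO livers, 3 of 14 enzymes, 0 of 17 regulators, and 1 of 8 transport genes had an unadjusted p under 0.05 for that contrast, and DESeq2 called 0 of any list. In control livers those counts were 1, 4, and 0, and for the interaction 1, 1, and 2, again with 0 called by DESeq2. Over all genes the shares at that level were 6.71% in *Lmna* ADKO livers, 6.16% in controls, and 4.86% for the interaction. *Cyp2c70* had the smallest p of them, with a median of 323 CPM (100.2 to 396) in rescue livers and a log2 fold change of 0.94 against vehicle (edgeR adjusted p = 0.567).

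Markers of some cell types in liver were called between genotypes with vehicle as well, and those of others were not. The summed level of 7 hepatocyte genes, to which bile acid synthesis belongs, ran from 80271 to 139801 CPM in control vehicle livers and from 71239 to 105833 CPM in *Lmna* ADKO vehicle livers, and 2 of the 7 fell (*Serpina1a* and *Cps1*). The list went both ways, since 4 of 7 passed on adjusted p alone and *Apob*, named after its values were seen, was above all 7 controls in all 6 *Lmna* ADKO livers (log2 fold change 0.37, edgeR adjusted p = 0.0215). The summed level of 6 cholangiocyte genes, mainly *Spp1*, ran from 27.1 to 51.2 CPM and from 85.8 to 196 CPM, and 2 of the 6 rose (*Spp1* and *Cftr*, the latter on 0 to 8 counts per library). All 6 had fold changes above 0. Of 6 stellate cell genes 1 rose (*Lrat*) and 2 had fold changes below 0, and of 6 endothelial genes 1 rose (*Lyve1*) and 3 had fold changes below 0, with a median of -0.05 on the log2 scale. Of the other lists, 0 of 6 Kupffer cell, 0 of 6 lymphocyte, and 0 of 4 adipocyte genes were called in edgeR, with 3, 2, and 1 at an unadjusted p under 0.05 and 0, 1, and 1 called by DESeq2. Fold changes above 0 were found for 0, 0, and 1 of these genes. The list medians on the log2 scale were -0.46 (Kupffer cell), -0.61 (lymphocyte), and -0.66 (adipocyte). Over all genes 8.48% were called and 27% were at an unadjusted p under 0.05 in edgeR. *Lep* was at 0 in every vehicle library. The part of these shifts in the differences above was not tested. Because *Cyp7a1* follows the day in mice, 14 clock genes were listed too. In vehicle livers 0 of 14 were called by edgeR, with 3 at an unadjusted p under 0.05, a level reached by 27% of all genes. DESeq2 called 0, with 2 past its adjusted p alone. The smallest p were those of *Cry1* (log2 fold change 0.53, edgeR adjusted p = 0.0562) and *Nr1d1* (-0.58, edgeR adjusted p = 0.0922), and *Dbp* had 91.9 to 183 CPM in control and 50.7 to 137 CPM in *Lmna* ADKO livers (log2 fold change -0.46, edgeR adjusted p = 0.184). For rescue against vehicle in controls 0 of 14 were called by edgeR or DESeq2, with 3 and 4 at an unadjusted p under 0.05, the smallest for *Per1* (log2 fold change 1.29, edgeR adjusted p = 0.576) and *Ciart* (1.64, edgeR adjusted p = 0.769). Over all genes 6.16% were at that level in edgeR. In *Lmna* ADKO livers 0 of 14 reached that level by either tool. The part of clock genes in the *Cyp7a1* comparisons was not tested beyond the relation with *Dbp*.

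The genes most like 4 of the members were sought among the 12492 whose log2 CPM averaged 0 or more, by Pearson's r of log2 CPM with each group's mean subtracted over the 24 libraries. For *Cyp7a1* they were *Gpr155* (r = 0.85), *Sult1b1* (0.77), and *Bhmt2* (0.73), and for *Cyp8b1* *Gm20634* (0.74), *Necab1* (0.73), and *Gbp10* (0.72). For *Cyp7b1* they were *Slc22a30* (0.88), *Sult2a8* (0.82), and *Sult2a7* (0.82), of which the latter belong to a family of near-identical genes, so that counts may be shared between them. For *Nr0b2* they were *Pnrc1* (0.78), *Krr1* (0.78), and *Oser1* (0.77). These are the highest values of many, taken across libraries that share depth and preparation, and carry no test.

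By GENCODE M21 on GRCm38, *Cyp7a1* lies on chromosome 4 (6265612 to 6275633, minus strand), *Cyp8b1* on chromosome 9 (121914356 to 121916305, minus strand), and *Cyp27a1* on chromosome 1 (74713574 to 74737892, plus strand). *Cyp7b1* lies on chromosome 3 (18071950 to 18243338, minus strand), *Cyp39a1* on chromosome 17 (43667425 to 43751431, plus strand), *Akr1d1* on chromosome 6 (37530173 to 37568815, plus strand), and *Baat* on chromosome 4 (49489422 to 49506557, minus strand). *Nr1h4* lies on chromosome 10 (89454234 to 89533585, minus strand), *Nr0b2* on chromosome 4 (133553376 to 133556536, plus strand), and *Nr5a2* on chromosome 1 (136842571 to 136960448, minus strand). No member overlaps an antisense gene. A small nuclear RNA gene lies on the same strand within each of *Cyp7b1* and *Cyp39a1*, and a processed pseudogene within *Akr1d1*.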

How the data were processed

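Poly(A) RNA of 24 livers was sequenced as strand-specific libraries. The authors deposited 1 table of whole-number counts per gene; the submitters' processing notes name FastQC 0.11.8, cutadapt 4.8, STAR 2.7.8a, RSEM 1.3.3, and GRCm38. All 23972 genes were kept, with 19863304 to 21510054 counts per library. Groups were read from the genotype and treatment labels, and libraries are numbered within a group by ascending animal number. edgeR 4.0.16 (R 4.3.3) was run with TMM scaling and robust quasi-likelihood fits of the 4 groups, without covariates, and adjusted by Benjamini-Hochberg over all genes. DESeq2 1.42.0, other scaling, filterByExpr, covariates, fits of the compared groups, and left-out libraries were alternatives. Shares of all genes called or past a p are from the edgeR fit. RPKM used exonic lengths of GENCODE M21, which held 23926 of the genes. Within groups, 67 pairs of libraries had a chi-square per degree of freedom of at least 14.1, so none was a duplicate. Scripts were tested on simulated data. The members and gene lists were chosen with earlier results of these data known. Genes named were the members, at most 4 called genes per list with the smallest adjusted p, at most 2 with the smallest p where none was called, *Fgfr4*, *Klb*, *Fgf21*, *Lmna*, and *Dbp*, and the 3 genes most like each of 4 members. *Lep* was named after its values were seen. A gene that the rule would name is not reported here, though list counts include it.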

Additional observations from a re-analysis of the deposited data

Results flagged for a closer look

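Single libraries stood apart from the rest of their group for 3 of 30 combinations of a member and a group that had enough libraries for Dixon's test, and chance flags about 1 in 20 (1.5 of 30). All 3 were *Lmna* ADKO rescue livers. *Cyp8b1* was at 179 CPM in library 4, below the other 7 libraries of the group. *Cyp27a1* was at 217 CPM in library 3, again below the other 7. *Nr0b2* was at 79.4 CPM in library 7, above the other 7, and this library had the steepest slope of log2 CPM on gene length.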

How the results depend on the processing

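No paired analysis was possible because each animal has its own number and the groups share none. With 3 to 8 livers a group, differences of *Cyp7a1* and *Nr0b2* were the least precise. Members called with vehicle numbered 0, and 1 by adjusted p alone (*Nr5a2*), and 0 to 1 when each library was left out. For rescue against vehicle in *Lmna* ADKO livers they numbered 0, 1 by DESeq2, and 0 to 1 when each library was left out. Over all genes, the genotype difference with vehicle was called for 2033 genes (3623 by adjusted p alone), and after rescue for 690, with 344 from the compared groups, 307 in 4-digit animals, 402 without the 3 libraries with a slope on gene length, and 339 to 1149 when each library was left out. For rescue against vehicle 13 genes were called in controls (38 by DESeq2, 0 with the number series, 3 to 26 with libraries left out) and 0 in *Lmna* ADKO livers (15 by DESeq2, 2 in 4-digit animals, 0 to 61 with libraries left out). For the interaction 1 was called (11 by DESeq2, 2 with its size factors, 2 with filterByExpr, 0 with the number series, 3 with the slope as covariate, 5 without the 3 libraries, 0 to 5 with libraries left out). The cause was not tested. Fits without the 3 libraries with a slope on gene length also hold fewer control rescue libraries.

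Of single values of the members under the alternatives, 435 kept their direction and side of the threshold, and 38 turned direction. The other 5 belonged to settings in which at least 1 fit called the gene. Both ends of a leave-one-out range were counted so, even where the end itself was not called. With the number series as a covariate the vehicle difference lost its call for *Foxa2* (-0.65) and *Abcc4* (0.85), among others. Values that turned direction are given on the log2 scale, as the range over fits without 1 library unless stated. With vehicle, the genotype difference of *Akr1d1* ran from -0.22 to 0.0052. After rescue, that of *Cyp7a1* ran from -0.70 to 0.40, *Cyp39a1* from -0.57 to 0.031, *Nr0b2* from -0.079 to 0.69, and *Klb* from -0.14 to 0.28 (-0.060 without the 3 libraries). For rescue against vehicle in controls, *Cyp7b1* ran from -0.087 to 0.13 (0.0080 by DESeq2, 0.0081 with its size factors, 0.00067 with filterByExpr), and *Nr1h4* from -0.14 to 0.23 (-0.064 with the number series, -0.13 without the 3 libraries). *Nr5a2* ran from -0.080 to 0.054 (0.037 with the number series), *Klb* from -0.39 to 0.027 (0.032 without the 3 libraries), *Baat* from -0.068 to 0.051, and *Nr0b2* from -0.64 to 0.069. In *Lmna* ADKO livers *Nr5a2* ran from -0.039 to 0.020 (0.00078 with filterByExpr, 0.00023 from the compared groups, 5.5e-05 without the 3 libraries), and in 4-digit animals *Cyp7a1* was -0.25 and *Nr0b2* 0.15. For the interaction, *Cyp8b1* ran from -0.19 to 0.058 (0.14 with the number series), *Baat* from -0.11 to 0.0063 (0.091 with the number series, 0.023 without the 3 libraries), *Nr5a2* from -0.055 to 0.081 (-0.062 with the number series), *Cyp39a1* from -0.27 to 0.33 (-0.24 without the 3 libraries), *Nr1h4* from -0.36 to 0.0053, and *Nr0b2* from -0.30 to 0.47. Without the 2 libraries farthest from the median, r of *Nr0b2* and *Cyp7a1* turned to 0.38 in control vehicle and 0.034 in *Lmna* ADKO rescue livers. For *Nr0b2* and *Cyp8b1* it turned to 0.10, -0.26, and -0.52 in control vehicle, *Lmna* ADKO vehicle, and *Lmna* ADKO rescue livers. In *Lmna* ADKO rescue livers it turned to -0.19 for *Nr1h4* and *Nr0b2* and to -0.0066 for *Dbp* and *Cyp7a1*.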
